A study of Mus musculus with 4 samples.

Results

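Accessible chromatin was described around 10 mouse transcription factor genes that are active in blood progenitors and early thymic immigrants: Lyl1, Tal1, Lmo2, Lmo4, Hhex, Mef2c, Gfi1b, Spi1, Erg and Nfe2. These genes were taken from a fixed list, drawn up with earlier results of these data in view, out of 21883 protein-coding genes of the mouse annotation. A peak was counted for a gene when it overlapped the gene's mm10 span extended by 50 kb on each side. After peaks of the 4 libraries were merged wherever they shared at least 1 bp, 74 of 36224 regions of the genome belonged to these windows.

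Both fractions were DN3 cells, the CD4 and CD8 double-negative thymocytes that rearrange the T cell receptor beta gene, sorted by flow cytometry from the thymus of wild-type mice (WT mice in the labels). EpCAM-positive cells were those held back on magnetic beads through an antibody against EpCAM, an adhesion molecule, and EpCAM-negative cells were those that passed through unlabelled. ATAC-seq, in which a transposase cuts and tags open DNA, was run on 2 libraries of each fraction. The labels give neither an age nor a number of mice and do not say whether different mice were used for the libraries, whose spread may therefore be technical.

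Thymic immigrants arrive with part of the regulatory state of blood stem and progenitor cells. TAL1 or LYL1 pairs with an E protein and is bridged by LMO2 or LMO4 to GATA factors, PU.1 (the product of Spi1) opens myeloid and early lymphoid enhancers, and these genes are turned down in steps as Notch signalling and Bcl11b commit the cells to the T lineage. Several of them, among them TAL1, LYL1, LMO2, HHEX and MEF2C, are switched on again in human T cell leukaemias.

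The deposited lists held 26029 and 29030 peaks for EpCAM-positive libraries 1 and 2 and 24598 and 25924 for EpCAM-negative libraries 1 and 2. The fold over background and the −log10 q quoted for a peak are the authors' own. Summit fragments, the number of fragments stacked at a peak's summit, were worked out from those folds and the deposited −log10 p. Read totals are not known, but the background solved in the same way was 1.34 times higher in the EpCAM-positive libraries, and their median summit over regions shared by all 4 libraries was 31 and 32 fragments against 25 and 25 in the EpCAM-negative ones. The weakest listed peaks had a −log10 q of 2.07 and 2.02 in EpCAM-positive libraries 1 and 2 and of 1.32 and 1.34 in EpCAM-negative libraries 1 and 2, so a region with no listed peak is below a threshold and is not at 0. In bulk material, fewer cells with an open site and a site that is less open per cell cannot be told apart. The DN3 label was checked at gene ends (within 1000 bp). A region called in all 4 libraries was found there at 6 of 11 DN3 marker genes (54.5%, against 41.3% of all protein-coding genes). These were Il2ra, Cd3e, Cd3d, Cd3g, Bcl11b and Notch1. Ptcra and Rag1 had one called in both EpCAM-negative libraries alone, Thy1 one of 3 libraries, Rag2 one of 1 library and Dntt none at all. An end region called in all 4 libraries was also found at 1 of 6 B cell genes (Ebf1), 0 of 7 myeloid genes, 0 of 7 erythroid and megakaryocyte genes, 1 of 5 thymic epithelial genes (Cldn4) and 0 of 5 genes of NK and innate lymphoid cells.

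Sequences around annotated starts are shown for 5 of the genes, because the regions at these starts differ in how the libraries called them. Each is given in the direction of transcription from RefSeq GRCm38.p6 and ends at the base before the gene span. Hhex lies at chr19:37434591-37434840 (plus strand), wholly inside a region called in both EpCAM-positive libraries alone. Lyl1 lies at chr8:84701207-84701422 (plus strand), and its last bases reach into a region called in both EpCAM-negative libraries alone. Lmo4 lies at chr3:144205256-144205505 (minus strand), wholly inside a region called in all 4 libraries. Tal1 at chr4:115056176-115056425 (plus strand) and Gfi1b at chr2:28621983-28622232 (minus strand) overlap no listed peak. Capitals mark matches to the motifs searched, and overlapping matches run together.
Hhex: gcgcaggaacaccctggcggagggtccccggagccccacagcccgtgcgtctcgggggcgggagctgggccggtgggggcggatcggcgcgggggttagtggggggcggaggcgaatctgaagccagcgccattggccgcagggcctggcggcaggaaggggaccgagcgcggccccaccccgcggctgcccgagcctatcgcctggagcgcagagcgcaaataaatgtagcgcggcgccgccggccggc
Lyl1: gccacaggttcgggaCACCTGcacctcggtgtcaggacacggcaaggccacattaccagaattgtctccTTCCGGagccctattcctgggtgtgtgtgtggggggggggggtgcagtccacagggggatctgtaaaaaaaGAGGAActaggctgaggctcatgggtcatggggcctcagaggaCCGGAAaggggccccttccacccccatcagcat
Lmo4: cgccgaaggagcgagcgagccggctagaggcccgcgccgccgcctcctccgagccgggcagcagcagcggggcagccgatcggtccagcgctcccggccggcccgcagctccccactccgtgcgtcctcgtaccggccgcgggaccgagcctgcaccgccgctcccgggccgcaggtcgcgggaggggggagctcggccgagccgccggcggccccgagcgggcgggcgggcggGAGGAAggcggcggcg
Tal1: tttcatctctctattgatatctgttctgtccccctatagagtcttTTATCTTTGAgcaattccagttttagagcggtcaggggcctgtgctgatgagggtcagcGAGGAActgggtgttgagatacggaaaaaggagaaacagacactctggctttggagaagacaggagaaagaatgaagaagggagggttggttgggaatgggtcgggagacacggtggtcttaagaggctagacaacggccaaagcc
Gfi1b: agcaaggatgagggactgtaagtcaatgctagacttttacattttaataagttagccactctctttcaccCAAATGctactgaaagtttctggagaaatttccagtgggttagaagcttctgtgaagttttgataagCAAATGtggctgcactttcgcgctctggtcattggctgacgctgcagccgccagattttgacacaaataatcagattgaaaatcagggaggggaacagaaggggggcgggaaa

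The stretches of Hhex and Lmo4 were 76.0% and 82.4% G or C, that of Lyl1 60.6%, and those of Tal1 and Gfi1b, where no peak was listed, 48.8% and 44.4%. The motifs searched on both strands were the GATA core AGATAA, the E-box CANNTG with its form CAGATG, its form CAGCTG and its form CAGGTG (all of which overlap CANNTG), the PU.1-type ETS site GAGGAA, the ETS core CCGGAA, the RUNX sites TGTGGT and TGCGGT, the NF-E2 site GCTGAGT, the AP-1 site TGACTCA, the TCF1 site CTTTGA and the MEF2 core TATTTAT. Hhex held none of them in the printed stretch. Lyl1 held an E-box of the CAGGTG form on the opposite strand, GAGGAA once and CCGGAA on both strands, and the CCGGAA nearest the gene, at chr8:84701390-84701395, lay inside the EpCAM-negative-only region. Tal1 held AGATAA on the opposite strand, where it overlaps a TCF1 site, and GAGGAA. Lmo4 held GAGGAA, and Gfi1b held a pair of E-boxes reading CAAATG. The start-site table has an entry for 7 of the 10 genes (all but Lmo2, Spi1 and Nfe2), with 14 windows of 300 bases among 32817. Of these 14 windows, 5 held GAGGAA against 28.3% of all windows, 8 held CANNTG against 72.3%, 3 held CTTTGA against 16.0%, 2 held AGATAA against 11.2%, 2 held CAGGTG against 20.2%, 2 held CAGATG against 17.2%, 1 held CCGGAA against 14.9% and 1, of Erg, held TATTTAT against 5.60%. None of the 14 held CAGCTG (16.3% of all windows), a RUNX site (16.8% for TGTGGT and 6.45% for TGCGGT), the NF-E2 site (5.14%) or the AP-1 site (5.20%). A match is a run of letters and says nothing of binding.

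The windows of the 10 genes held 54 and 61 peaks in EpCAM-positive libraries 1 and 2 and 49 and 46 in EpCAM-negative libraries 1 and 2. The mean was 57.5 ± 4.95 peaks in EpCAM-positive and 47.5 ± 2.12 in EpCAM-negative libraries (SD, n = 2 each), and the values of the fractions did not overlap. The difference of 10 peaks was 6.5 without EpCAM-positive library 2. As a share of each list, they were 0.208% and 0.210% for the EpCAM-positive and 0.199% and 0.178% for the EpCAM-negative libraries. An exact permutation test of 2 libraries against 2 (two-sided) cannot give a p under 0.33, so nothing here was tested. Of the 74 regions, 32 (43.2%) were called in all 4 libraries, against 46.3% of regions genome-wide. Regions listed for both EpCAM-positive libraries and for no EpCAM-negative one (EpCAM-positive-only) numbered 6 (8.11%, against 4.40% genome-wide), and EpCAM-negative-only regions numbered 2 (2.70%, against 1.72%). Regions called in 1 library of each fraction, a pattern with as many calls and no preference for a fraction, numbered 9 (12.2%, against 6.95%). A further 7 regions were called in 3 libraries (10.8% genome-wide) and 18 in 1 (29.8% genome-wide). With 1 library left out, the EpCAM-positive-only share was above that of the genome: 15 regions (21.4%, against 16.7%) without EpCAM-positive library 1, 11 (16.7%, against 13.3%) without EpCAM-positive library 2, 10 (13.9%, against 8.18%) without EpCAM-negative library 1 and 8 (11.1%, against 8.61%) without EpCAM-negative library 2. By construction, regions of this class with all libraries keep it when a library is left out, so these shares are not independent of the first. The EpCAM-negative-only share was below that of the genome each time: 2 regions (2.86%, against 3.44%) without EpCAM-positive library 1, 3 (4.55%, against 4.69%) without EpCAM-positive library 2, 4 (5.56%, against 9.37%) without EpCAM-negative library 1 and 5 (6.94%, against 7.50%) without EpCAM-negative library 2.

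**Figure D1:**
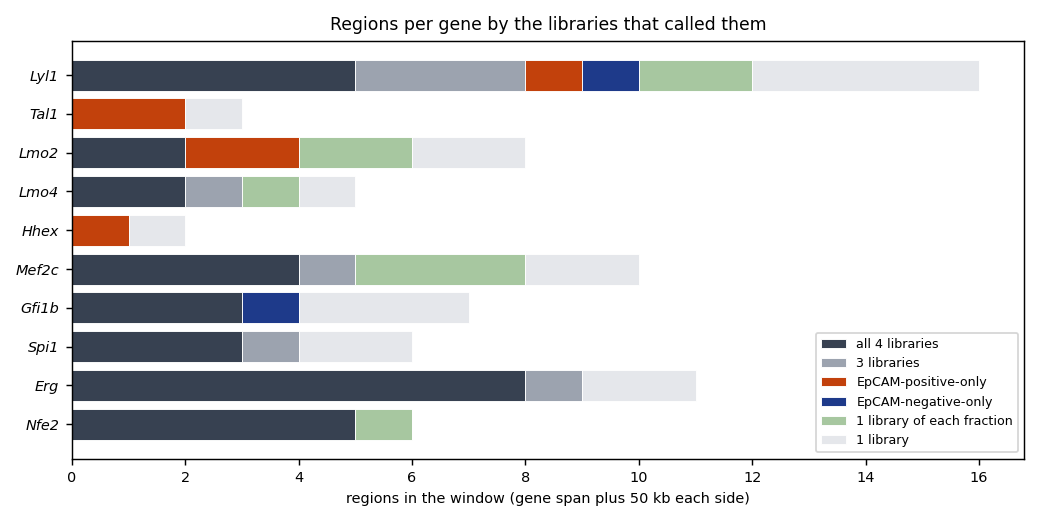
Number of regions in the window of each gene (bar length, gene span plus 50 kb on each side), split by the libraries that called them. Lyl1 had 16 regions and Hhex 2; EpCAM-positive-only regions lay at Lyl1, Tal1, Lmo2 and Hhex, and EpCAM-negative-only ones at Lyl1 and Gfi1b.

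The genes differed widely in how much listed chromatin surrounded them. Erg had 8 regions called in all 4 libraries, more than 97.9% of protein-coding genes, Lyl1 and Nfe2 had 5 each, Mef2c 4, Gfi1b and Spi1 3 each, Lmo2 and Lmo4 2 each, and Tal1 and Hhex 0, against a median of 2 over all genes. The window was longest at Erg, with 327 kb, and per 100 kb Erg had 2.44 such regions, Lyl1 4.84 and Nfe2 4.54, against a median of 1.25. Mef2c, the next longest, had 1.52, below Gfi1b (2.67), Spi1 (2.25), Lmo4 (1.71) and Lmo2 (1.61). At least 1 such region was found at 8 of the 10 genes (71.2% of all genes). At least 1 EpCAM-positive-only region was found in the window of 4 of the 10 genes (15.9% of all genes), and at least 2 at Tal1 and Lmo2 (2.40% of all genes). With the lists cut to equal length, Tal1 and Lmo2 had 1 each. An EpCAM-negative-only region was found at 2 of the 10 (4.89% of all genes), and more than 1 at none of them (0.183% of all genes). Of the 32 regions called in all 4 libraries, 9 had their summit within 1000 bp of an end of a neighbour, 2 at an end of a listed gene (Lmo4 and Nfe2) and 21 at neither. Inside the listed genes there were 28 regions, and the 10 of them called in all 4 libraries lay in 2 genes, Erg with 6 and Mef2c with 4. The strongest −log10 q had a median of 52.5 in the shared regions at neighbours' ends, 18.5 in those inside the listed genes and 19.5 over all 32, against 26.7 over the shared regions of the genome.

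**Figure D2:**
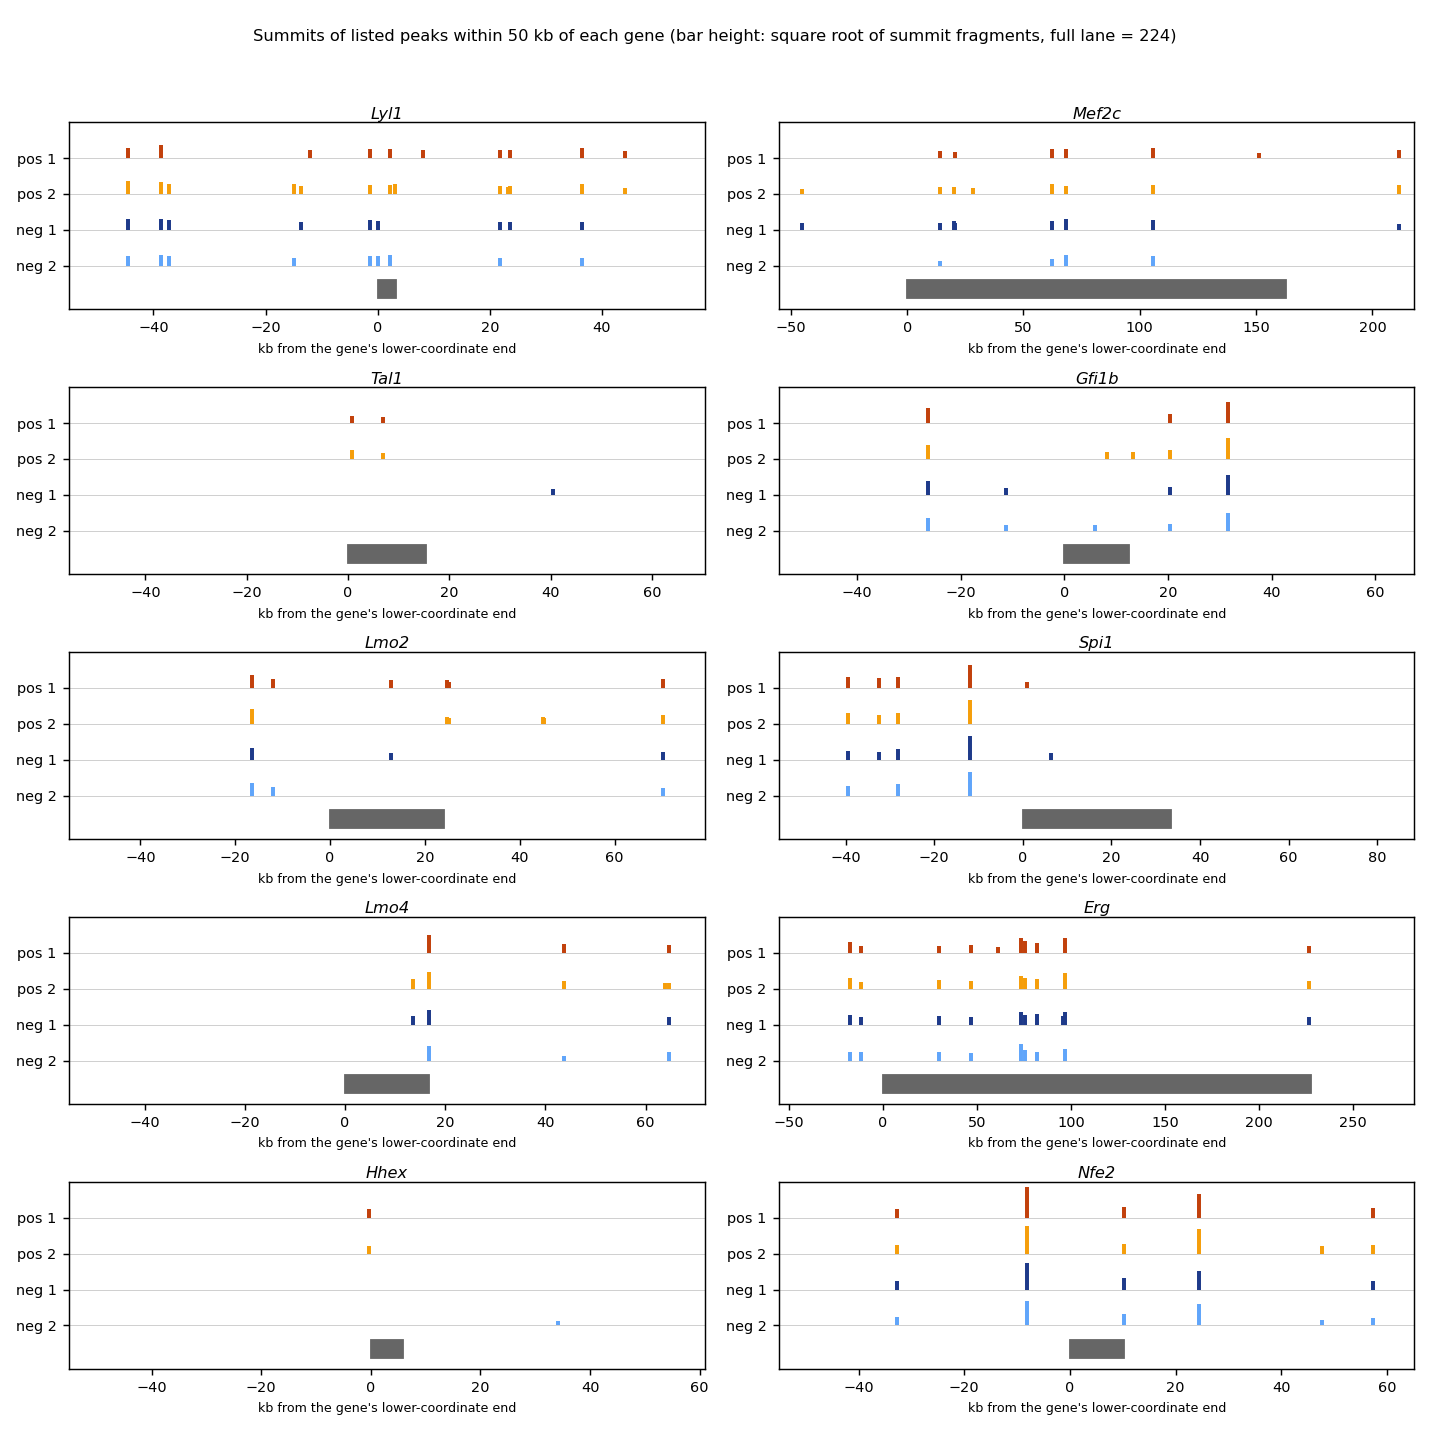
Position of each listed peak's summit, in kb from the lower-coordinate end of the gene, in EpCAM-positive libraries 1 and 2 (upper lanes) and EpCAM-negative libraries 1 and 2 (lower lanes); bar height is the square root of summit fragments, with a full lane at 224, and the grey box is the gene. Peaks shared by all 4 libraries lie inside no listed gene but Erg and Mef2c, Tal1 and Hhex show none shared by the fractions, and the tallest bars at Spi1 and Nfe2 lie outside the genes.

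TAL1 and LYL1 are closely related basic helix-loop-helix factors. At Tal1 (chromosome 4, 115056426-115071755) the window held 3 regions, 2 of them EpCAM-positive-only and both inside the gene. The first, at 115057085-115057456, was 823 bp inside the gene's end and 562 bp before its other annotated start, and had 13 and 20 fragments and a fold of 5.85 and 8.27 in EpCAM-positive libraries 1 and 2. The EpCAM-negative lists had no peak within 39171 and 56771 bp of it. At 115063037-115063486, 6837 bp inside, the EpCAM-positive libraries had 10 and 9 fragments and a low −log10 q of 4.86 and 3.99. The remaining region was called in EpCAM-negative library 1 alone, with 7 fragments.

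Lyl1 (chromosome 8, 84701423-84704716) is a short gene in dense surroundings, and its 16 regions outnumber those of 99.2% of genes, but none inside the gene was called in all 4 libraries. Over its start, at 84701388-84701721, EpCAM-negative libraries 1 and 2 had 20 and 25 fragments, with a high local background of 3.79 and 4.62 and folds of 4.39 and 4.63. The EpCAM-positive lists had their nearest peaks 1187 and 1193 bp away, those of a region called in all 4 libraries at the Trmt1 end, with 20 and 21 fragments in EpCAM-positive and 23 and 22 in EpCAM-negative libraries. Further inside Lyl1, at 84703195-84703777, peaks were listed in both EpCAM-positive libraries, with 21 and 20 fragments, and in EpCAM-negative library 2, with 26. A region 294 bp inside the other end of Lyl1, also at an end of Nfix, was listed in EpCAM-positive library 2 alone, with 24 fragments. Each library thus had a listed peak within Lyl1, and they differed in which stretch was listed. Within Nfix, 40858 bp from Lyl1, lay an EpCAM-positive-only region with 11 and 10 fragments (84745401-84745889). The strongest region of the window, at 84656524-84657030, had 23 and 38 fragments in EpCAM-positive and 30 and 24 in EpCAM-negative libraries, which overlapped.

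LMO2 and LMO4 are LIM-only adaptor proteins that hold such complexes together without touching DNA. Lmo2 (chromosome 2, 103957903-103981878) had a pair of EpCAM-positive-only regions side by side beyond its higher-coordinate end. The nearer, at 103982467-103982711 and 770 bp outside the gene, had 14 and 10 fragments in EpCAM-positive libraries 1 and 2, and the farther, at 103982781-103983052 and 1038 bp outside, had 8 and 9. With gaps of up to 500 bp closed they are 1 region. The nearest EpCAM-negative peaks were 11718 and 36554 bp from the nearer one, the first of them inside Lmo2 at 103970326-103971001, a region called in 1 library of each fraction with 14 fragments in EpCAM-positive library 1 and 10 in EpCAM-negative library 1. The strongest region of the window, 16565 bp outside the gene at 103940970-103941537, had 43 and 55 fragments in EpCAM-positive and 33 and 41 in EpCAM-negative libraries. After division by each library's median over shared regions these values were 1.39 and 1.72 in EpCAM-positive and 1.32 and 1.64 in EpCAM-negative libraries, and they overlapped.

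Lmo4 (chromosome 3, 144188530-144205255) carried its strongest region at its own start. At 144204637-144205633, which covers the printed stretch, EpCAM-positive libraries 1 and 2 had 77 and 69 fragments and EpCAM-negative libraries 1 and 2 had 51 and 54. The scaled values were 2.48 and 2.16 in EpCAM-positive and 2.04 and 2.16 in EpCAM-negative libraries, a ratio of 1.11 (95% counting interval 0.853 to 1.43), so the higher raw counts of the EpCAM-positive libraries did not outlast the scaling. A distal region, 47821 bp beyond that start, had 15 and 9 fragments in EpCAM-positive and 14 and 19 in EpCAM-negative libraries, with a scaled ratio of 0.580 (0.326 to 1.01) and raw values that overlapped. Counting intervals cover counting error only and not the spread between libraries.

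HHEX is a homeobox repressor of the endothelium, the liver bud and blood progenitors. Its window (chromosome 19, gene at 37434841-37440731) held 2 regions, fewer than the median of 4. The region at 37434296-37434906, summit 330 bp before the start, had 17 and 16 fragments, folds of 6.54 and 6.69 and a −log10 q of 9.42 and 9.26 in EpCAM-positive libraries 1 and 2. The nearest EpCAM-negative peaks were 57717 and 34118 bp away, and the second of these was the window's other region, listed with 4 fragments in EpCAM-negative library 2 alone. Of the 14 start-site windows, that of Hhex was the only one overlapped by an EpCAM-positive-only region (0.676% of 32817 windows), that of Lyl1 by an EpCAM-negative-only one (0.0914%) and 1 of Lmo4 by a region called in all 4 libraries (30.0%), while 10 met no listed peak (64.3%).

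**Figure D3:**
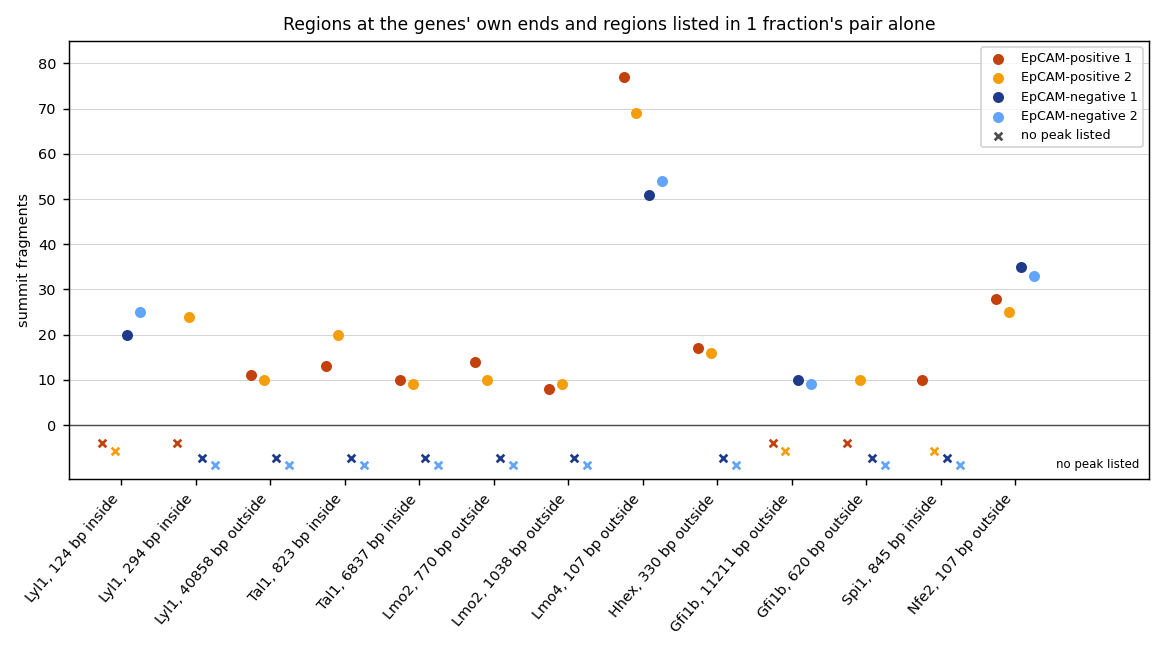
Summit fragments (vertical axis) per library at every region with its summit within 1000 bp of an end of a listed gene and at every region listed in both libraries of 1 fraction alone; crosses in the strip under 0 mark libraries with no listed peak, which is not a value of 0. Regions listed in 1 fraction alone had 8 to 25 fragments, while Lmo4 and Nfe2 had peaks in all 4 libraries.

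Depth moved with the fractions, as given above, and its part in the calls at Hhex, Tal1, Lmo2, Lyl1 and Gfi1b was not tested. In an alternative chosen after seeing the data, EpCAM-positive peaks were scaled down by the 1.34-fold ratio of backgrounds and 1 threshold on −log10 p was set for all lists. The scaling matched that ratio and nothing else. Scaling and threshold together removed 597 and 872 peaks of EpCAM-positive libraries 1 and 2. In EpCAM-negative libraries 1 and 2 the threshold removed 316 and 114, and no list could gain a peak. There were again 6 EpCAM-positive-only (4.15% of all regions) and 2 EpCAM-negative-only regions (1.85%), in the same genes. With so few peaks removed and none added, this recount did not test the part of depth. At the background of EpCAM-negative library 1, the weaker Tal1 and farther Lmo2 regions came to 7.14 and 6.40 fragments. There, 7 and 6 would have reached the first percentile of listed −log10 p. The Hhex region came to 12.4 (8 needed), the stronger Tal1 region to 12.4 (8), the nearer Lmo2 region to 9.02 (6) and the one near Lyl1 to 7.90 (6).

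MEF2C, a MADS-box factor of lymphoid and myeloid progenitors, and ERG, an ETS factor of blood stem cells that stays active into early T cell stages, are encoded by long genes with many internal regions. Mef2c (chromosome 13, 83504017-83667079) had no region at either end and 4 inside called in all 4 libraries. At 83571997-83572645, 1340 bp before an internal start, EpCAM-positive libraries 1 and 2 had 21 and 14 fragments and EpCAM-negative libraries 1 and 2 had 26 and 27, and both EpCAM-negative values were higher before and after scaling (ratio 0.526, 0.332 to 0.818). The other shared regions inside Mef2c were closer to even. The one at 83565997-83566485 had 22 and 25 fragments in EpCAM-positive and 19 and 12 in EpCAM-negative libraries, and the one at 83518077-83518593 had 13 and 12 in EpCAM-positive and 12 and 5 in EpCAM-negative libraries, with overlapping scaled values at both. At 83609017-83609697 the counts were 25 and 21 in EpCAM-positive and 23 and 21 in EpCAM-negative libraries, which put both EpCAM-negative values higher only once scaled (ratio 0.831, 0.537 to 1.28).

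Erg (chromosome 16, 95359169-95586600) had 6 internal regions and 2 beyond its lower-coordinate end called in all 4 libraries. The strongest, at 95432541-95433019, had 53 and 42 fragments in EpCAM-positive and 37 and 65 in EpCAM-negative libraries, and its values overlapped (scaled ratio 0.741, 0.553 to 0.987). At 95455649-95456281, 3460 bp downstream of an internal start, both EpCAM-positive libraries were higher, with 54 and 57 fragments against 36 and 32 in the EpCAM-negative ones (scaled ratio 1.30, 0.949 to 1.78). Both EpCAM-negative libraries were higher at 95389083-95389712, with 12 and 17 fragments in EpCAM-positive and 18 and 19 in EpCAM-negative libraries (ratio 0.621, 0.369 to 1.04), and at 95347429-95347723, with 11 and 12 in EpCAM-positive and 13 and 16 in EpCAM-negative libraries (ratio 0.629, 0.348 to 1.13). Erg thus had regions that leaned either way. Near its outermost start, 1042 bp inside the gene, a region was listed in 3 libraries, with 10 and 13 fragments in EpCAM-positive libraries 1 and 2 and 15 in EpCAM-negative library 1.

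GFI1B, a zinc-finger repressor of erythroid and megakaryocyte cells, PU.1, the ETS factor of myeloid and B cells, and NFE2, the bZIP factor of megakaryocytes, belong to other blood lineages. Gfi1b (chromosome 2, 28609450-28621982) had 1 EpCAM-negative-only region, at 28598111-28598394 and 11211 bp outside the gene, with 10 and 9 fragments in EpCAM-negative libraries 1 and 2; EpCAM-positive peaks came no nearer than 14791 and 14822 bp. At the Gfi1b start, 620 bp outside, only EpCAM-positive library 2 had a peak, with 10 fragments. The tallest peaks of the window were those at the Tsc1 end, with 107 and 103 fragments in EpCAM-positive and 99 and 76 in EpCAM-negative libraries.

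Inside Spi1 (chromosome 2, 91082374-91115759) there were 2 weak regions, each in 1 library: 10 fragments in EpCAM-positive library 1, 845 bp inside the lower-coordinate end, and 12 fragments in EpCAM-negative library 1, 6264 bp inside. No region within the gene was listed in more than 1 library. The window's strongest region belonged to Slc39a13, 11909 bp outside, with 124 and 132 fragments in EpCAM-positive and 138 and 131 in EpCAM-negative libraries. These counts overlapped, but once scaled both EpCAM-negative values were higher (ratio 0.755, 0.634 to 0.900).

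Nfe2 (chromosome 15, 103248212-103258403) had a region called in all 4 libraries at its higher-coordinate end, with its summit 107 bp outside. EpCAM-positive libraries 1 and 2 had 28 and 25 fragments there and EpCAM-negative libraries 1 and 2 had 35 and 33, the EpCAM-negative values being higher before and after scaling (ratio 0.619, 0.424 to 0.899). This was the only end region of a listed gene with all 4 peaks and no overlap between the fractions. The strongest peaks of the window stood at the shared end of Cbx5 and Hnrnpa1, with 224 and 191 fragments in EpCAM-positive and 174 and 140 in EpCAM-negative libraries, and overlapped once scaled.

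Over the 32 shared regions, scaled values of both EpCAM-positive libraries were higher at 3 (19.2% of the 16758 such regions genome-wide), scaled values of both EpCAM-negative libraries were higher at 12 (24.5% genome-wide), and 17 overlapped. Without scaling the split was 16 (50.0%, against 49.4% genome-wide) and 5 (15.6%, against 5.20%), so which fraction had more of these regions rests on the scaling. The share higher in EpCAM-negative libraries was above that of the genome with scaling (37.5%, against 24.5%) and without it. The share higher in EpCAM-positive libraries was below the genome's with scaling (9.38%, against 19.2%) and close to it without. With 1 library left out, those higher in EpCAM-positive libraries were 7 (21.2%, against 31.3% genome-wide) without EpCAM-positive library 1, 10 (31.2%, against 34.4%) without EpCAM-positive library 2 and 9 (25.0%, against 34.9%) without EpCAM-negative library 2, but 14 (41.2%, against 35.7%) without EpCAM-negative library 1, where the share turned to above that of the genome. The share higher in EpCAM-negative libraries was above the genome's each time, also without EpCAM-negative library 1 (44.1%, against 37.9%). It was 48.5% (against 37.5%) without EpCAM-positive library 1, 40.6% (against 36.4%) without EpCAM-positive library 2 and 47.2% (against 35.8%) without EpCAM-negative library 2. These recounts reuse the same libraries and are not independent of each other. The median EpCAM-positive over EpCAM-negative ratio was 0.940, against 0.980 over all shared regions and 0.970 over the weaker part of them. Weaker regions made up most of the set: 23 of the 32 fell under the genome's median −log10 q, and 2 of these were higher in EpCAM-positive (18.4% genome-wide) and 11 in EpCAM-negative libraries (24.9% genome-wide). Regions without overlap whose means stood at least 1.5 times apart numbered 0 for EpCAM-positive (3.89% genome-wide) and 5 for EpCAM-negative libraries (6.34% genome-wide), namely those of Mef2c, Lmo4, Nfe2 and the pair at Erg given above. The 3 higher in EpCAM-positive libraries were the Erg region given above, one within Nfix near Lyl1 (ratio 1.23, 0.755 to 2.04) and one at the Fbxo3 end near Lmo2 (ratio 1.13, 0.682 to 1.91). Counting intervals of these 3 all included 1. Among the 12 higher in EpCAM-negative libraries, the interval lay wholly under 1 only at the Slc39a13 end, the Nfe2 end and the Mef2c region with a ratio of 0.526.

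**Figure D4:**
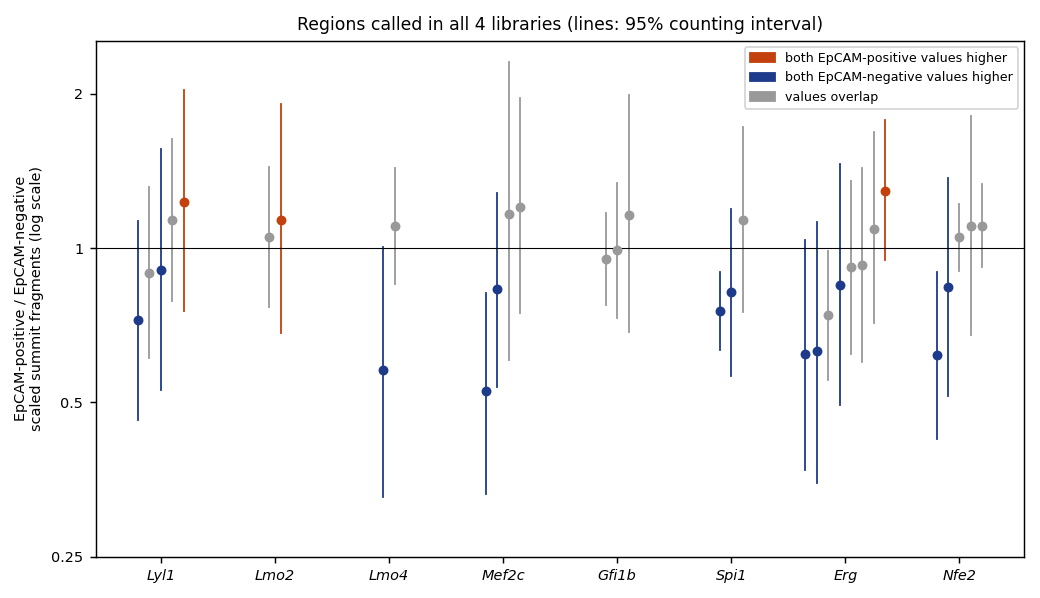
Ratio of scaled summit fragments, EpCAM-positive over EpCAM-negative, on a log axis for the 32 regions called in all 4 libraries, grouped by gene; points are the ratio of fraction means (n = 2 each), lines its 95% counting interval, and colour tells which fraction had both values higher. Ratios run from 0.526 at Mef2c to 1.30 at Erg, and 17 regions overlapped between the fractions.

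At gene ends, the 10 genes fell into several states. Where an end had regions of several classes, the gene took the first present in a fixed order, whatever the peak strength. The order was all 4 libraries, EpCAM-positive-only, EpCAM-negative-only, 3 libraries, 1 library of each fraction and 1 library. A region called in all 4 libraries was present at Lmo4 and Nfe2 (41.3% of all genes), an EpCAM-positive-only one at Tal1, Lmo2 and Hhex (1.46%) and an EpCAM-negative-only one at Lyl1 (0.187%). Either end of a gene counts here. No strand or start was given for Lmo2, Spi1 and Nfe2, so whether their end regions lie at a start is not known. Gfi1b and Spi1 had a region in 1 library (4.03%), and Mef2c and Erg none (48.5%). A region of 3 libraries (3.22%) or of 1 library of each fraction (1.31%) gave the state of none of the 10. Since the genes were listed with earlier results of these data in view, the 3 and 1 are a description and were not set against chance.

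Related genes were counted in the same way. Of 24 partners and paralogues of the listed factors, 10 (41.7%) had an end region called in all 4 libraries, close to the 41.3% of all genes. None took its state from a region of 1 fraction's pair. Their windows held 7 EpCAM-positive-only and 5 EpCAM-negative-only regions of 179 (3.91% and 2.79%, against 4.40% and 1.72% genome-wide). Of these, 3 EpCAM-positive-only ones lay at the E protein gene Tcf3 and 2 EpCAM-negative-only ones at the E protein gene Tcf4. Gata1, Gata2 and Gata3, which encode the GATA factors of these complexes, had no region at an end in any library (48.5% of all genes). The Gata3 window nevertheless held 4 regions, 3 of them called in all 4 libraries and 2 of these inside the gene. The window of Gata1 held 1 region, called in all 4 libraries, and that of Gata2 held 3, of which 0 were. Among 20 other progenitor genes, 7 (35%) had an all-library end region, among them Kit. The 104 regions included 3 EpCAM-positive-only (2.88%) and 4 EpCAM-negative-only ones (3.85%). Of 18 T lineage commitment genes, 9 (50%) had such an end region, among them Bcl11b and Notch1. EpCAM-positive-only regions made up 8 of 190 (4.21%) and EpCAM-negative-only regions 5 (2.63%). Of 12 genes typical of DN3 cells, Erg among them, 6 (50%) had one. Their 97 regions included 1 EpCAM-positive-only (1.03%) and 3 EpCAM-negative-only ones (3.09%), and Ptcra and Rag1 had an EpCAM-negative-only region at an end. Around markers of other cells, EpCAM-positive-only regions were 3 of 46 (6.52%) at myeloid genes (Elane and Mpo). They were 2 of 27 (7.41%) at NK and innate lymphoid genes, both at Tbx21, whose gene-end state was EpCAM-positive-only. Thymic epithelial genes had 1 of 28 (3.57%, at Krt8), B cell genes 0 of 34 and erythroid and megakaryocyte genes 0 of 23. The share was 8.11% at the 10 listed factors and 4.40% genome-wide. Whether other cells in either fraction add to the calls at the listed genes was not tested.

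**Figure D5:**
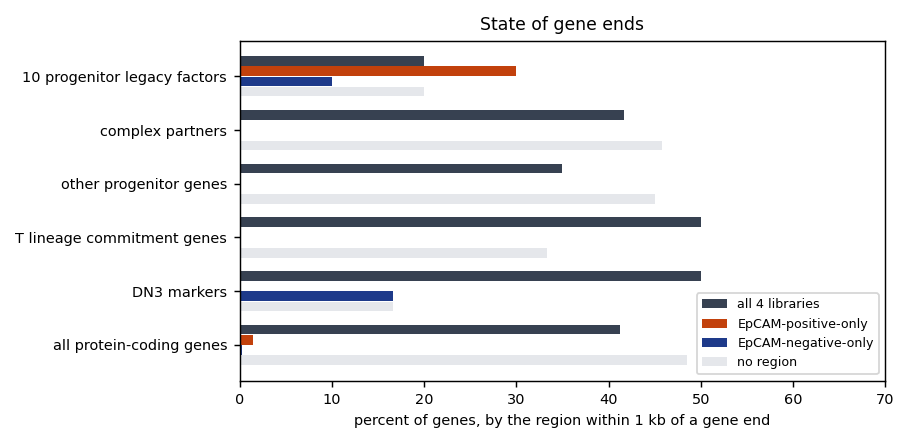
Percent of genes in each list (horizontal axis) with a region within 1000 bp of a gene end called in all 4 libraries, else in the EpCAM-positive pair alone, else in the EpCAM-negative pair alone, or with no region there. The order is by class and not by peak strength. Genes whose state was 1 library, 3 libraries or 1 of each fraction are not drawn. Of the 10 listed factors 3 were EpCAM-positive-only and 1 EpCAM-negative-only, against 1.46% and 0.187% of all protein-coding genes.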

How the data were processed

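ATAC-seq peak lists of 2 EpCAM-positive and 2 EpCAM-negative DN3 libraries were used, grouped by title. Each list was deposited per library. MACS3, Bowtie2, Trim Galore, Trimmomatic, FastQC, Picard, SAMtools, deepTools and bedtools are listed, with the build mm10 (GRCm38), per the submitters' processing notes. Not given in the sources used here are versions, settings, the handling of duplicates and any shift for the transposase offset. Deposited columns, made by the authors' peak caller, are a display score, a fold over local background, the −log10 of the p-value and of the q-value, and the offset of the summit.

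Summit fragments and local background were solved from the authors' fold (1 added to both terms) and −log10 p (Poisson), with a tolerance of 0.01 on −log10 p, for at least 99.9885% of peaks per list; whether the caller stacked fragments or reads is not given. This was tested on simulated data. Peaks overlapping by at least 1 bp were merged into regions, and a region takes the summit of its strongest peak by −log10 q. For regions in all 4 libraries, summit fragments were divided by the library's median over such regions, and ratios carry exact Clopper-Pearson intervals at 95%. Depth as reads is unknown. Gene spans, start sites and sequences are RefSeq GRCm38.p6. The genes and lists were chosen with earlier results of these data known. Named are the 10 genes with every region within 1000 bp of an end, the strongest region, regions listed in 1 fraction's pair alone and those at least 1.5 times apart without overlap, plus a few examples from each list. Nfix, Fbxo3 and the nearer-to-even Mef2c, Lyl1, Lmo2, Spi1 and Erg regions were added after their values were seen. Python 3.11.15, pandas 2.3.3, NumPy 2.4.6, SciPy 1.17.1 and Matplotlib 3.10.9 were used.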

Additional observations from a re-analysis of the deposited data

How the results depend on the processing

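Each count was recomputed under other windows, thresholds, merging rules, scalings and with each library left out. With windows of 10 kb the 10 genes had 38 regions (74 as reported), 15 called in all 4 libraries, 1 EpCAM-negative-only, 1 shared region higher in EpCAM-positive and 6 higher in EpCAM-negative libraries, and with 100 kb 51 were called in all 4 and 7 were higher in EpCAM-positive libraries. Unscaled fragments gave 16 shared regions higher in EpCAM-positive (50.0%, against 49.4% genome-wide) and 5 higher in EpCAM-negative libraries (15.6%, against 5.20%). Leaving out 1 library at a time gave 8 to 15 EpCAM-positive-only regions (8.18% to 16.7% of all regions genome-wide), 2 to 5 EpCAM-negative-only regions (3.44% to 9.37%) and 7 to 14 shared regions higher in EpCAM-positive libraries (31.3% to 35.7%). The share of EpCAM-negative-only regions, above the genome's with all libraries, was below it each time, and that of regions higher in EpCAM-positive libraries was above it only without EpCAM-negative library 1. That of regions higher in EpCAM-negative libraries was above it each time, as with all libraries. A single library lists more regions than a pair shares, by construction. The other 63 recomputed values moved by no more than 1.5 times, apart from the excess of EpCAM-positive peaks (10 as reported), which was 6.5 without EpCAM-positive library 2; without the other libraries it ran up to 13.5. With lists of equal length the EpCAM-positive-only regions lay at Hhex, Lmo2, Lmo4, Lyl1 and Tal1, with 1 at each, so Tal1 and Lmo2 no longer had 2. The planned depth scaling removed only 1 and 2 peaks of EpCAM-positive libraries 1 and 2, so a stricter threshold was added after seeing the data. No paired analysis was possible because no result comes from a test and nothing ties library 1 of one fraction to library 1 of the other.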
